A study of Drosophila melanogaster with 56 samples.

Results

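The comparison described here set *Drosophila melanogaster* embryos 6 h after egg-laying against embryos 1 h after egg-laying. It used every library labelled 1 h or 6 h, 4 of each, which are 8 of the 56 libraries of the series, and the libraries were taken by their time label alone. The series followed mRNA over 14 time points from 0 to 20 h of embryogenesis, to be set beside protein measurements of the same embryo collections. All were whole embryos of the wild-type strain Oregon R, with no transgene or treatment described. They came from cages of fertilized females kept at 25 °C, were collected in laying windows of 30 min, and were then aged to 1 h or 6 h. Each time point was described as biological quadruplicates, and each sample was a pellet of many embryos, so that the p-values below measure the spread between such pellets. That spread was estimated from all 56 libraries fitted together, not from the 8 alone. Polyadenylated RNA was made into stranded libraries. A change in the length of the poly(A) tail and a change in the amount of an mRNA therefore cannot be told apart, and in whole embryos neither can fewer expressing cells and less RNA per cell.

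An insect egg is laid with a store of mRNA and protein that the mother made in the ovary. In the first hours the nuclei divide rapidly in a common cytoplasm under the control of this store while their own genome is almost silent. Maternal mRNAs are then degraded, first by factors that act on egg activation and later by factors that the embryo makes, and the zygotic genome is switched on as the cell membranes form. At 1 h the embryo is within the rapid nuclear divisions, and at 6 h it has gastrulated, its segments are being laid down and its neuroblasts, muscle precursors and gut primordia have been set aside.

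Between 15995007 and 19251866 reads per library were counted on genes at 1 h and between 14149639 and 18409607 at 6 h. A count was found on 10248 to 10786 genes at 1 h and on 11913 to 12495 genes at 6 h. At these depths 3 counts, the limit set by a count of 0, corresponded to 0.156 to 0.212 CPM (counts scaled to a common library total), which covers counting error only. Reads outside annotated genes made up 0.425% to 0.485% of a library at 1 h and 1.36% to 1.44% at 6 h. Mitochondrially encoded RNAs, mostly the large ribosomal RNA *mt:lrRNA*, held 2.78% to 7.07% of the counts at 1 h and 7.77% to 14.9% at 6 h. Markers of the eggshell-forming follicle cells summed to at most 0.266 CPM at 1 h and 2.72 CPM at 6 h, and 9 of the 11 were at 0 in all 1 h libraries. Markers of sperm and testis summed to at most 0.160 and 0.285 CPM. Genes of late differentiation (muscle, synapse and cuticle) summed to 179 to 344 CPM at 1 h and 503 to 884 CPM at 6 h, against 3373 to 27628 CPM at 18 to 20 h, and their 1 h level was highest in replicate 1.

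Levels are given as RPKM, read counts scaled to the length of a gene's exons and to all reads counted on genes, and in lists of 4 values the replicates stand in the order 1 to 4. A gene was called higher or lower at 6 h with an adjusted p under 0.05 in edgeR's quasi-likelihood test and a log2 fold change of 1 or more in either direction. Of the 11065 genes tested, 4009 (36.2%) were called higher and 2113 (19.1%) lower, 55.3% in all, and 76.5% passed the adjusted p alone. The split depended on the scaling: the median log2 fold change of all genes was 0.48, and it moved to -0.01 when 2 h replicate 4 replaced 16 h replicate 3 as the reference library of TMM, the trimmed-mean scaling between libraries, with 3257 genes then called higher and 3105 lower, so that higher calls fell from 65.5% to 51.2% of all calls. All 2113 lower calls were among those 3105. In the fit above and in all 19 alternative fits, 2265 genes (20.5%) were called higher and 1976 (17.9%) lower, and these are referred to below as called in every fit. A gene that a fit did not test counts as not called there, which bears on 1086 of the higher and 31 of the lower calls. In every fit that tested the gene, 2952 of the higher and 2001 of the lower calls were made again. Genes given below as not called refer to the fit above, and 15 such named genes were called in at least 1 alternative. Among them, *CycA*, *Pop2*, *Not1*, *Tl*, *zuc* and *hb* were each called lower in 4 alternatives. In 3 alternatives *tud* was called lower, and in 3 *N* was called higher. The genes called lower held 31.9% to 33.4% of the counts of a 1 h library and 7.13% to 7.77% of a 6 h library, which follows from how they were chosen and is given as a description.

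**Figure D1:**
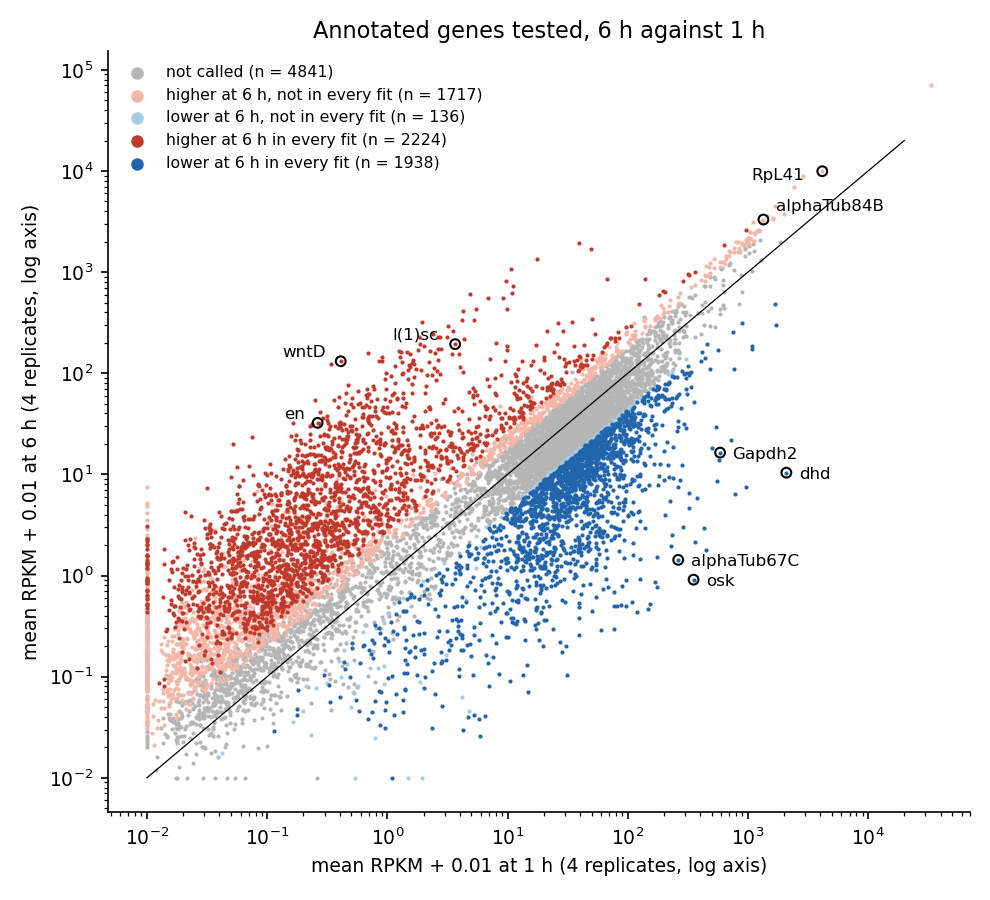
Mean level of each annotated gene tested at 1 h (horizontal) and 6 h (vertical), in RPKM plus 0.01 on log axes, each the mean of 4 replicates; the line marks equal levels. Dark blue and dark red points are genes called lower (1938 annotated) or higher (2224 annotated) at 6 h in every fit. The paler points are called in the fit reported but not in all alternatives, in part because an alternative did not test the gene; *mt:lrRNA* and *RpL41*, at the upper right, are among them.

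At a threshold of 1 RPKM in all 4 replicates of one time point and below it in all 4 of the other, 192 of 17252 annotated genes were present only at 1 h and 1035 only at 6 h, whereas 6032 exceeded 1 RPKM in all 8 libraries. At a threshold of 0.5 RPKM the numbers were 137, 1088 and 6441. Most of the mRNA species above the threshold at 1 h were therefore above it at 6 h as well.

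The 12 largest falls were taken among called genes with a symbol, at least 100 counts on average and no overlap between the groups. Separate groups in this set therefore follow from the choice. The 12 were *osk*, *fs(1)N*, *Cyp6a19*, *otu*, *CG6927*, *CG7208*, *Pxt*, *CG31262*, *yl*, *fs(1)Ya*, *dhd* and *CG8180*, with log2 fold changes from -8.46 to -7.50. Several are known for functions in the ovary or the egg. *osk* (3R:8935126-8938395, plus strand, build BDGP6), the determinant that assembles the germ plasm at the posterior pole, was measured at 409.9, 334, 369.6 and 298 RPKM at 1 h and 0.517, 0.271, 0.862 and 1.95 RPKM at 6 h. All 4 libraries of 1 h lay far above all 4 of 6 h, and the log2 fold change was -8.46 (SE 0.54, adjusted p = 1.64e-18). Its exons share 78.5% of their bases with another gene on the same strand in the annotation used here, where reads may have been assigned to neither gene, so the level per length may be understated at both times.

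*dhd* (X:5312171-5313125, plus strand), a thioredoxin of the egg that acts on the sperm chromatin, was the most abundant of the 12 and the most abundant nuclear mRNA after *RpL41* at 1 h. It was measured at 2225, 1554, 2528 and 2045 RPKM at 1 h and 3.59, 3.70, 13.6 and 20.7 RPKM at 6 h. The 6 h replicates 3 and 4 held several times the level of replicates 1 and 2, and the log2 fold change was -7.51 (SE 0.90, adjusted p = 3.89e-10). *Pxt*, a peroxidase-like enzyme of prostaglandin synthesis needed in oogenesis, stood at 474, 424, 432 and 446 RPKM at 1 h and 1.20, 1.59, 1.82 and 2.52 RPKM at 6 h. Its 1 h replicates lay close together, and all 6 h replicates lay far below them. *yl*, the receptor by which the oocyte takes up yolk protein, was measured at 269, 155, 153 and 117 RPKM at 1 h and 0.368, 0.167, 0.584 and 1.93 RPKM at 6 h. The fall exceeded the spread within the groups, even though replicate 1 held the highest level at 1 h and replicate 4 the highest at 6 h. In all of the 12 falls except that of *CG31262*, replicate 4 held the highest level of the 6 h libraries. *otu*, a deubiquitinase required for oogenesis, lay at 147 to 163 RPKM at 1 h and at 0.317 to 0.905 RPKM at 6 h. *fs(1)N*, which is needed for the eggshell and for terminal signalling, lay at 23.7 to 39.7 RPKM at 1 h and at 0.0537 to 0.149 RPKM at 6 h. *Cyp6a19*, a cytochrome P450, fell by 8.16 on the log2 scale. No function is given here for *CG6927*, *CG7208*, *CG31262* and *CG8180*, whose levels at 1 h were 120.4, 76.8, 14.9 and 169.7 RPKM on average and at most 1.48 RPKM in any 6 h library.

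The 12 largest rises were those of *Ugt49B2*, *CG34025*, *Six4*, *wntD*, *Alk*, *Gyc32E*, *Smvt*, the antisense RNA *asRNA:CR43864*, *Srr*, *E(spl)mgamma-HLH*, *E(spl)mdelta-HLH* and *VepD*, with log2 fold changes from 7.42 to 8.90. For *Ugt49B2*, *Six4* and *asRNA:CR43864* no 1 h library held more than 3 counts, so the size and rank of their rises are poorly known. *wntD*, a secreted protein of the Wnt family that feeds back on Toll signalling, was measured at 0.638, 0.279, 0.408 and 0.273 RPKM at 1 h and 131, 143, 122 and 129 RPKM at 6 h. Every 1 h library held less than 1 RPKM and every 6 h library a high level, and the log2 fold change was 8.44 (SE 0.52, adjusted p = 4.1e-19). *Six4*, a homeobox factor of the mesoderm, was measured at 0.0565, 0.0864, 0.0843 and 0.0338 RPKM at 1 h and 22.2, 25.3, 22.3 and 24.0 RPKM at 6 h. *Alk*, the receptor tyrosine kinase of the visceral mesoderm, stood at 0.107, 0.0547, 0.0214 and 0 RPKM at 1 h and 10.0, 11.0, 13.9 and 12.5 RPKM at 6 h, and no read was counted in 1 h replicate 4. The highest level of the 12 at 6 h was that of *E(spl)mgamma-HLH*, a bHLH repressor that Notch signalling induces, with 1.95, 3.62, 0.741 and 1.44 RPKM at 1 h and 321, 298, 366 and 312 RPKM at 6 h. Enzymes and transporters made up part of the set: *Ugt49B2*, a UDP-glycosyltransferase (3R:21397781-21399742, minus strand), rose to 17.2 to 21.4 RPKM, *Gyc32E*, a guanylyl cyclase, to 136 to 183 RPKM, *Smvt*, a sodium-dependent vitamin transporter, to 51.8 to 56.7 RPKM, and *Srr*, serine racemase, to 27.2 to 36.1 RPKM. Genes of both sets were named only if the groups did not overlap, and all 24 were called in every fit.

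**Figure D2:**
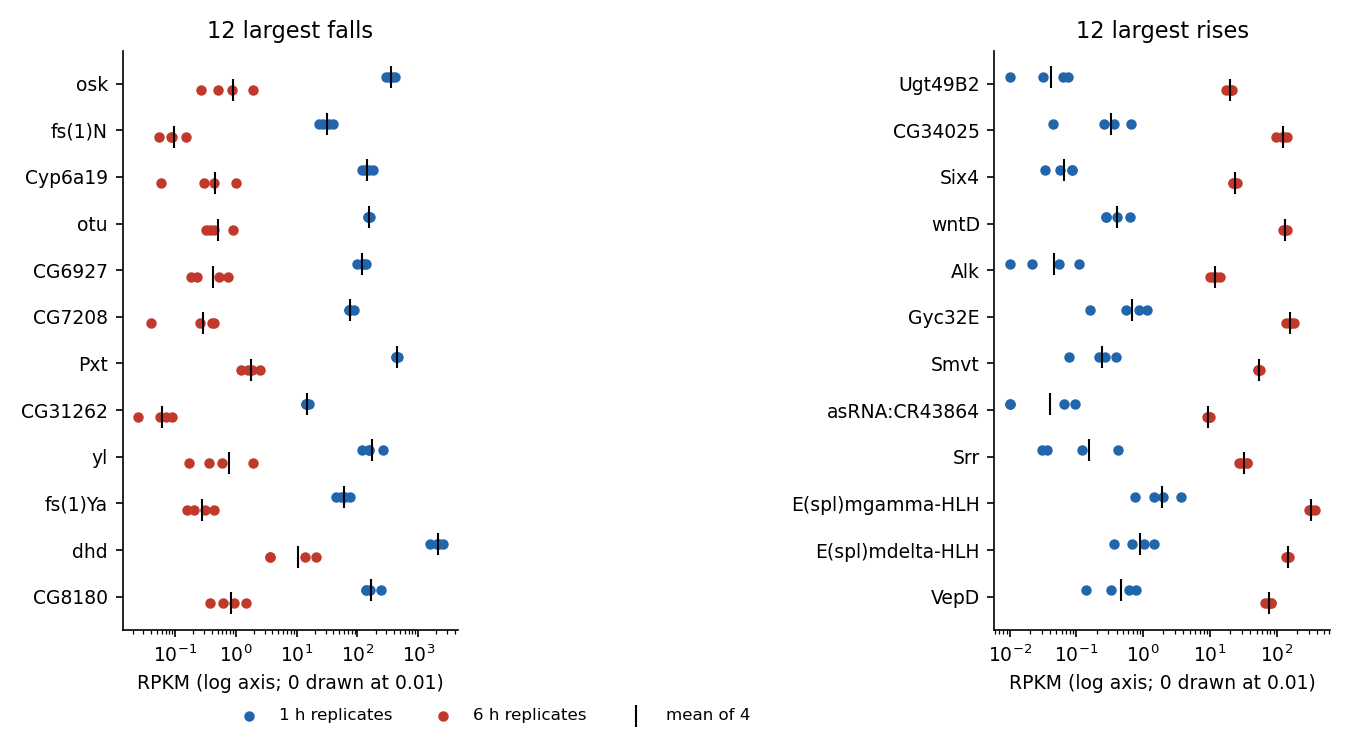
Level of the genes with the 12 largest falls (left) and the 12 largest rises (right) in each library, in RPKM on a log axis. Blue points are the 4 replicates of 1 h, red points the 4 of 6 h, and black ticks their means. In each of the 24 genes the blue and red points are separate, which the rule for naming them required. The replicates of the time point with the lower level are the more scattered on the log axis.

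Genes of the maternal body axes and the germ plasm were mostly lower at 6 h: of 13 tested, 10 were called lower, 1 higher and 2 neither, with a median log2 fold change of -3.62 against 0.48 over all genes. At the anterior pole, *bcd*, the transcription factor gradient that patterns head and thorax, was measured at 87.0, 85.6, 70.3 and 64.1 RPKM at 1 h and 1.08, 1.84, 4.46 and 1.97 RPKM at 6 h, a log2 change of -4.93 (SE 0.48, adjusted p = 1.53e-12). *exu* and *swa*, both required to localize *bcd* mRNA, fell further, with log2 fold changes of -7.25 and -6.71. The lowest 1 h library held 65.8 RPKM of *exu* and the highest 6 h library 0.793 RPKM. Of the germ plasm, *pgc*, which holds transcription silent in the pole cells, lay at 179 to 223 RPKM at 1 h and at 3.49 to 4.66 RPKM at 6 h. *gcl*, which limits Torso signalling there, lay at 135 to 148 RPKM at 1 h and at 26.0 to 28.4 RPKM at 6 h. *aub*, a Piwi protein, fell by 1.38 on the log2 scale. *tor*, the receptor of the embryo's ends, was measured at 95.4, 92.9, 53.7 and 50.8 RPKM at 1 h and 1.80, 1.63, 2.20 and 3.30 RPKM at 6 h, with 1 h replicates 1 and 2 above replicates 3 and 4. *tud* and *stau* were not called: *tud*, the scaffold of the polar granules, had a log2 change of -0.51 (SE 0.25, adjusted p = 0.0658), and *stau*, an RNA-binding protein used for both maternal mRNAs and neuroblasts, one of 0.12 (SE 0.13, adjusted p = 0.421), with groups that overlapped. The mean level of *tud* was 37.2 RPKM at 1 h, 6.17 RPKM at 2 h and 24.2 RPKM at 6 h. *tsl*, a cue for terminal signalling that follicle cells secrete in the ovary, was the member that rose, from at most 0.181 RPKM at 1 h to 2.27 to 3.08 RPKM at 6 h.

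Factors that act on egg activation and on the translation and decay of maternal mRNAs were 13 in the test, of which 10 were called lower and 3 neither (median log2 fold change -2.65). The kinase subunits *png*, *plu* and *gnu*, which start translation after egg activation, all fell, *gnu* most, from levels of 280.3 to 369.8 RPKM to levels of 3.52 to 5.59 RPKM (log2 fold change -5.97, SE 0.34, adjusted p = 2.95e-20). *smg*, the RNA-binding protein that recruits deadenylases to maternal mRNAs, was itself measured at 530.2, 554, 579.7 and 511 RPKM at 1 h and 24.1, 25.6, 33.5 and 34.3 RPKM at 6 h. Its 1 h replicates lay within a narrow range far above those of 6 h. Components of the cytoplasmic RNP particles stayed abundant although lower: *me31B*, a DEAD-box helicase, was measured at 1504, 1633, 1813 and 1903 RPKM at 1 h and 311, 320.4, 292 and 287 RPKM at 6 h, and *tral*, its partner, lay at 705 to 804 RPKM at 1 h and at 105 to 116 RPKM at 6 h. The oogenesis regulators *bru1* and *orb* fell to 0.747 to 1.05 and 0.155 to 0.244 RPKM, with log2 fold changes of -7.00 and -6.89. Subunits of the CCR4-NOT deadenylase changed less. *twin*, the catalytic CCR4 subunit, had a log2 change of -1.09 (SE 0.12, adjusted p = 1.75e-11), while *Pop2* (log2 fold change -0.70) and *Not1* (log2 fold change -0.79), together with the translational repressor *brat* (log2 fold change -0.46), missed the fold threshold. The mean level of *brat* was 60.3 RPKM at 1 h, 18.5 RPKM at 2 h and 40.2 RPKM at 6 h. *cup* and *BicC* are listed at a count of 0 in all 8 libraries. In the annotation used here 100% of the exon bases of *cup* and 94.8% of those of *BicC* are shared with another gene on the same strand, where reads may have been assigned to neither gene, so nothing can be said of their level.

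Genes of the piRNA pathway, which silences transposons in the germ line, were mostly lower as well. Of 17 genes tested, 14 were called lower, 1 higher and 2 neither, with a median log2 fold change of -2.90. *piwi*, which acts in the nucleus, was measured at 73.0, 72.6, 84.2 and 73.6 RPKM at 1 h and 5.03, 6.07, 3.49 and 4.24 RPKM at 6 h. *AGO3*, a cytoplasmic Piwi protein, was measured at 77.9, 93.2, 86.5 and 81.7 RPKM at 1 h and 4.25, 4.73, 5.71 and 6.13 RPKM at 6 h. Both were separate between the groups, with log2 fold changes of -3.89 and -3.90. Among the nuclear factors that mark piRNA clusters, *del* fell from levels of 61.3 to 77.6 RPKM to levels of 0.613 to 1.05 RPKM, *rhi*, the heterochromatin protein, only from levels of 17.5 to 22.8 RPKM to levels of 7.46 to 10.1 RPKM, and *cuff*, their partner, rose from levels of 2.51 to 3.73 RPKM to levels of 13.2 to 16.8 RPKM (log2 fold change 2.37, SE 0.28, adjusted p = 3.88e-10). Members of the complex that these proteins form thus differed in direction. *krimp*, a factor of the cytoplasmic body near the nucleus where piRNAs are amplified, had a log2 fold change of -5.85. The endonuclease gene *zuc*, which acts at the outer mitochondrial membrane (log2 fold change -0.58), and *Panx*, of silencing in the nucleus (log2 fold change -0.47), were not called. *armi*, a helicase of piRNA production, had a log2 fold change of -5.03 and a mean of 57.5 RPKM at 1 h, although 99.6% of its exon bases are shared with another gene on the same strand in the annotation used here, so such sharing did not remove the reads of every gene.

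Of the 11 genes tested of the dorsal-ventral Toll pathway, 8 were called lower, 1 higher and 2 neither (median log2 fold change -2.16). The ligand gene *spz* fell from levels of 61.5 to 75.1 RPKM to levels of 1.95 to 3.17 RPKM, and the proteases that process the signal, *gd*, *snk* and *ea*, had log2 fold changes of -6.41, -5.18 and -3.93. The protease gene *ndl* was not called and lay at no more than 0.194 RPKM at 1 h, with groups that overlapped (log2 fold change -0.15, SE 0.38, adjusted p = 0.718). Inside the cell, *dl*, the NF-κB factor that forms the gradient, was measured at 21.1, 17.8, 22.4 and 21.4 RPKM at 1 h and 0.737, 0.352, 0.395 and 0.735 RPKM at 6 h, a fall without overlap. Its inhibitor *cact* was measured at 162, 176, 172 and 213 RPKM at 1 h and 74.7, 70.2, 76.2 and 73.0 RPKM at 6 h, with log2 fold changes of -5.08 for *dl* and -1.17 for *cact*. The adaptor *tub* and the kinase *pll* fell by 2.16 and 1.67 on the log2 scale. The receptor itself, *Tl*, was measured at 187, 207, 84.1 and 99.99 RPKM at 1 h and 84.0, 80.9, 89.3 and 87.0 RPKM at 6 h and was not called (log2 fold change -0.66, SE 0.36, adjusted p = 0.0895). Its 1 h replicate 3 lay within the range of 6 h, replicate 4 just above it and replicates 1 and 2 far above it. *wbl*, a chaperone of the endoplasmic reticulum that acts in the follicle cells, rose from at most 1.49 RPKM to 18.4 to 27.1 RPKM.

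**Figure D3:**
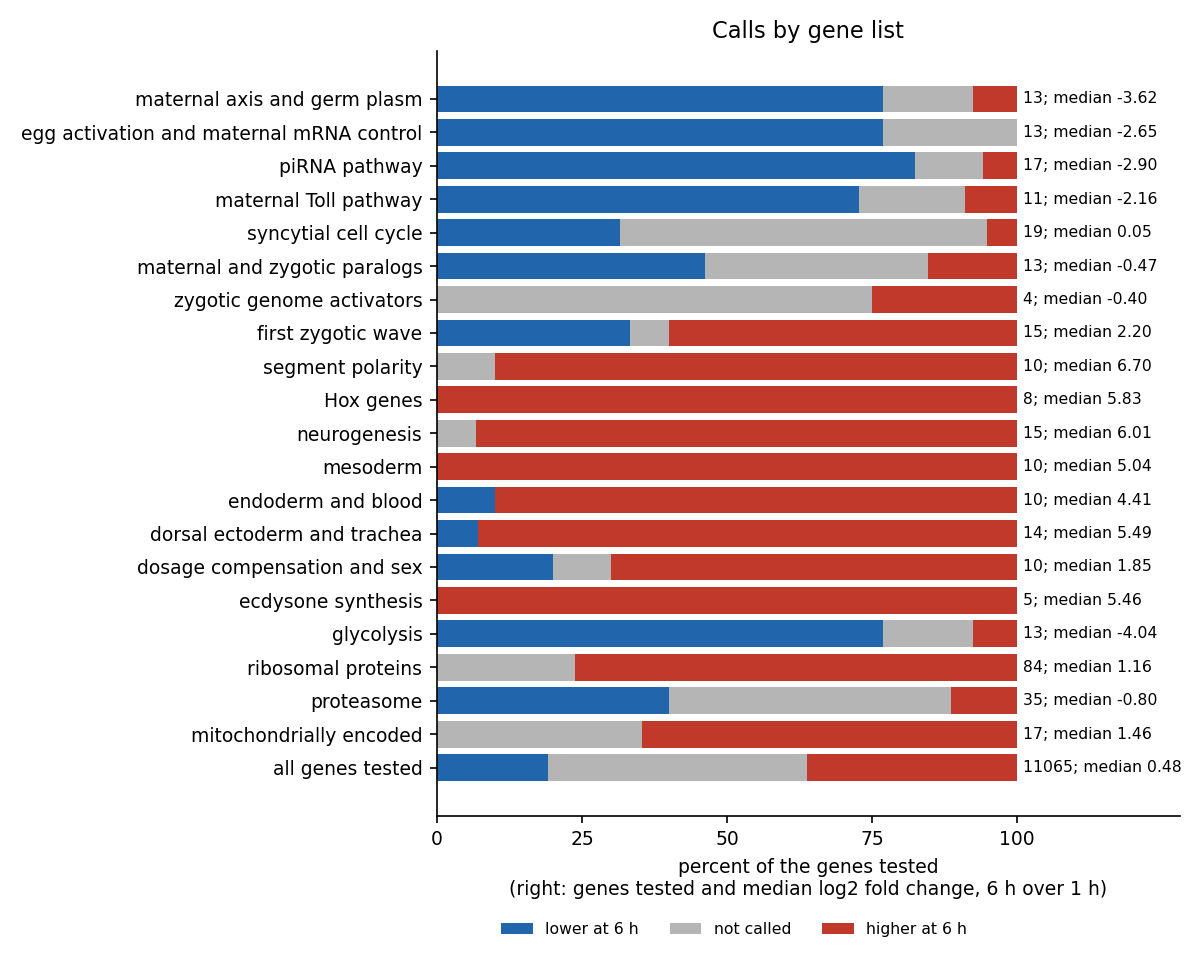
Share of the tested genes of each list called lower (blue), not called (grey) or called higher (red) at 6 h, with the number of genes tested and the median log2 fold change at the right. All genes tested, in the lowest bar, give the background of 19.1% lower and 36.2% higher. The first 4 lists are mostly blue, as is glycolysis, and the lists from segment polarity to dorsal ectoderm mostly red.

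The cell-cycle genes listed for the syncytial stage, some of them of meiosis or holding back mitosis, did not move as a group. Of 19 tested, 6 were called lower, 1 higher and 12 neither, and the median log2 fold change was 0.05. Over all genes tested, 19.1% were called lower and 36.2% higher, with a median of 0.48. This list thus held a smaller share of higher calls and a larger share of lower calls. The mitotic cyclin *CycB* was measured at 1652, 1664, 1686 and 1741 RPKM at 1 h and 494, 492, 487 and 482 RPKM at 6 h, with little spread within the groups. In the TMM-scaled fit the difference was 3.17-fold. *CycA* (log2 fold change -0.66) and *CycB3* (log2 fold change 0.22) were not called. *Cdk1*, *polo* and *BubR1* overlapped between the groups, with log2 fold changes of 0.26, 0.05 and 0.19. *mtrm*, the Polo inhibitor of female meiosis, lay at 314 to 404 RPKM at 1 h and at 1.16 to 3.08 RPKM at 6 h. *fs(1)Ya*, a nuclear envelope protein of the first mitosis, lay at 44.9 to 76.8 RPKM at 1 h and at 0.158 to 0.437 RPKM at 6 h. The checkpoint kinase gene *grp* fell by 1.36 and *CycE* by 1.19 on the log2 scale. *trbl*, which in the embryo holds back mitosis in the invaginating mesoderm, was the one that rose, from levels of 17.6 to 19.5 RPKM to levels of 101 to 111 RPKM.

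Where a maternal form and a more general form of a protein are encoded by different genes, their values could be set side by side. Of the 13 genes in this list, 6 were called lower, 2 higher and 5 neither. Of the Cdc25 phosphatases, *twe*, of meiosis, was measured at 89.3, 108, 109 and 118 RPKM at 1 h and 3.10, 3.68, 4.95 and 5.14 RPKM at 6 h. *stg*, of mitosis, was measured at 189.5, 181, 210.1 and 189.7 RPKM at 1 h and 134, 139, 133 and 124 RPKM at 6 h, with a lower mean of 73.5 RPKM at 2 h. The log2 fold change of *twe* was -4.52 (SE 0.57, adjusted p = 1.56e-09), and that of *stg*, -0.42 (SE 0.26, adjusted p = 0.142), missed the threshold; the difference between them was not tested. The gamma-tubulin *gammaTub37C* of the egg lay at 68.3 to 96.4 RPKM at 1 h and at 1.63 to 1.84 RPKM at 6 h. *gammaTub23C* lay at 59.1 to 85.4 RPKM at 1 h and at 42.9 to 50.9 RPKM at 6 h. Of the alpha-tubulins, the maternal *alphaTub67C* was measured at 304, 203, 304 and 239.9 RPKM at 1 h and 0.635, 1.14, 1.25 and 2.65 RPKM at 6 h. The ubiquitous *alphaTub84B* was measured at 1264, 1261, 1207 and 1650.2 RPKM at 1 h and 3503, 3005, 3520.2 and 3203 RPKM at 6 h. *alphaTub67C* fell and *alphaTub84B* rose in the test, but the rise was not called in every fit. *BigH1*, the linker histone of the early embryo, was measured at 346, 356, 376 and 439 RPKM at 1 h and 4.55, 4.86, 5.19 and 8.62 RPKM at 6 h, a log2 change of -5.89 (SE 0.52, adjusted p = 5.84e-14). The B-type lamin *Lam* rose from levels of 89.9 to 100.3 RPKM to levels of 272 to 298 RPKM and the A-type lamin *LamC* fell from levels of 10.8 to 12.6 RPKM to levels of 2.94 to 5.74 RPKM. Of the APC/C activators, *cort*, used in female meiosis, fell by 1.32 on the log2 scale, and *fzr* (log2 fold change 0.44) was not called. The mean level of *cort* was 1.29 RPKM at 2 h and 7.58 RPKM at 6 h. Of the Cks subunits of cyclin-dependent kinases, *Cks30A*, used in female meiosis, was not lower at 6 h, with 109, 95.5, 117 and 118 RPKM at 1 h and 166, 171, 157 and 155 RPKM at 6 h. Neither it (log2 fold change 0.69) nor *Cks85A* (log2 fold change 0.51) was called. The mean level of *Cks30A* was 33.5 RPKM at 2 h, so the comparison of 1 h with 6 h passes over a lower level in between.

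Of 4 maternally supplied activators of the zygotic genome, 3 were not called and 1 was called higher. Over all genes tested, 36.2% were called higher and 19.1% lower. With 2 h replicate 4 as the TMM reference, 0 of the 4 were called higher and 1 lower. *zld*, the pioneer factor that opens early enhancers, was measured at 56.6, 56.7, 61.0 and 49.9 RPKM at 1 h and 38.3, 35.5, 37.2 and 36.6 RPKM at 6 h. Its groups were separate, with a log2 change of -0.49 (SE 0.14, adjusted p = 0.002) that missed the fold threshold. *Clamp* (log2 fold change -0.31) and *Stat92E* (log2 fold change -0.76) were not called either, but *Stat92E* was called lower in 4 alternative fits. *Trl*, the GAGA factor, was called higher (log2 fold change 1.20) but not in every fit, and 77.8% of its exon bases are shared with another gene on the same strand.

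The mRNAs of glycolysis, which turns glucose into pyruvate, were mostly lower at 6 h. Of 13 genes tested, 10 were called lower in every fit, 1 higher and 2 neither, with a median log2 fold change of -4.04. *Gapdh2* (X:15868145-15869661, plus strand), glyceraldehyde-3-phosphate dehydrogenase, was measured at 657, 452, 653 and 584 RPKM at 1 h and 22.1, 10.0, 14.6 and 18.9 RPKM at 6 h. All 1 h libraries lay far above all 6 h libraries, and the log2 fold change was -5.04 (SE 0.39, adjusted p = 1.11e-15). *Gapdh1*, its paralog, stood at 285, 224, 284 and 296 RPKM at 1 h and 11.0, 5.54, 10.2 and 8.81 RPKM at 6 h. The regulated enzymes of the pathway fell in the same way: *Pfk*, phosphofructokinase, was measured at 42.3, 37.2, 41.3 and 37.3 RPKM at 1 h and 2.62, 1.57, 1.89 and 2.73 RPKM at 6 h. *PyK*, pyruvate kinase, was measured at 252, 189, 242 and 218 RPKM at 1 h and 6.67, 3.40, 6.30 and 5.21 RPKM at 6 h. In both, 6 h replicate 2 held the lowest level of all libraries, as it did in *Gapdh2*, *Eno* and *Tpi*. *Eno*, *Pglym78* and *Tpi* had log2 fold changes of -4.38, -4.38 and -4.76, *Hex-A* and *Pgk* of -3.25 and -2.34, and *Ald1*, aldolase, of -1.30. *Pgi* (log2 fold change -0.45) and *ERR*, the nuclear receptor that regulates glycolytic genes in *Drosophila* (log2 fold change 0.46), were not called. *Ldh*, lactate dehydrogenase, rose, with 1.83, 2.44, 1.20 and 2.70 RPKM at 1 h and 16.8, 9.39, 14.7 and 14.3 RPKM at 6 h. The fall was not the end of the course: at 20 h the mean level of *Gapdh2* was 419 RPKM, of *Pfk* 40.0 RPKM and of *Ald1* 303 RPKM.

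**Figure D4:**
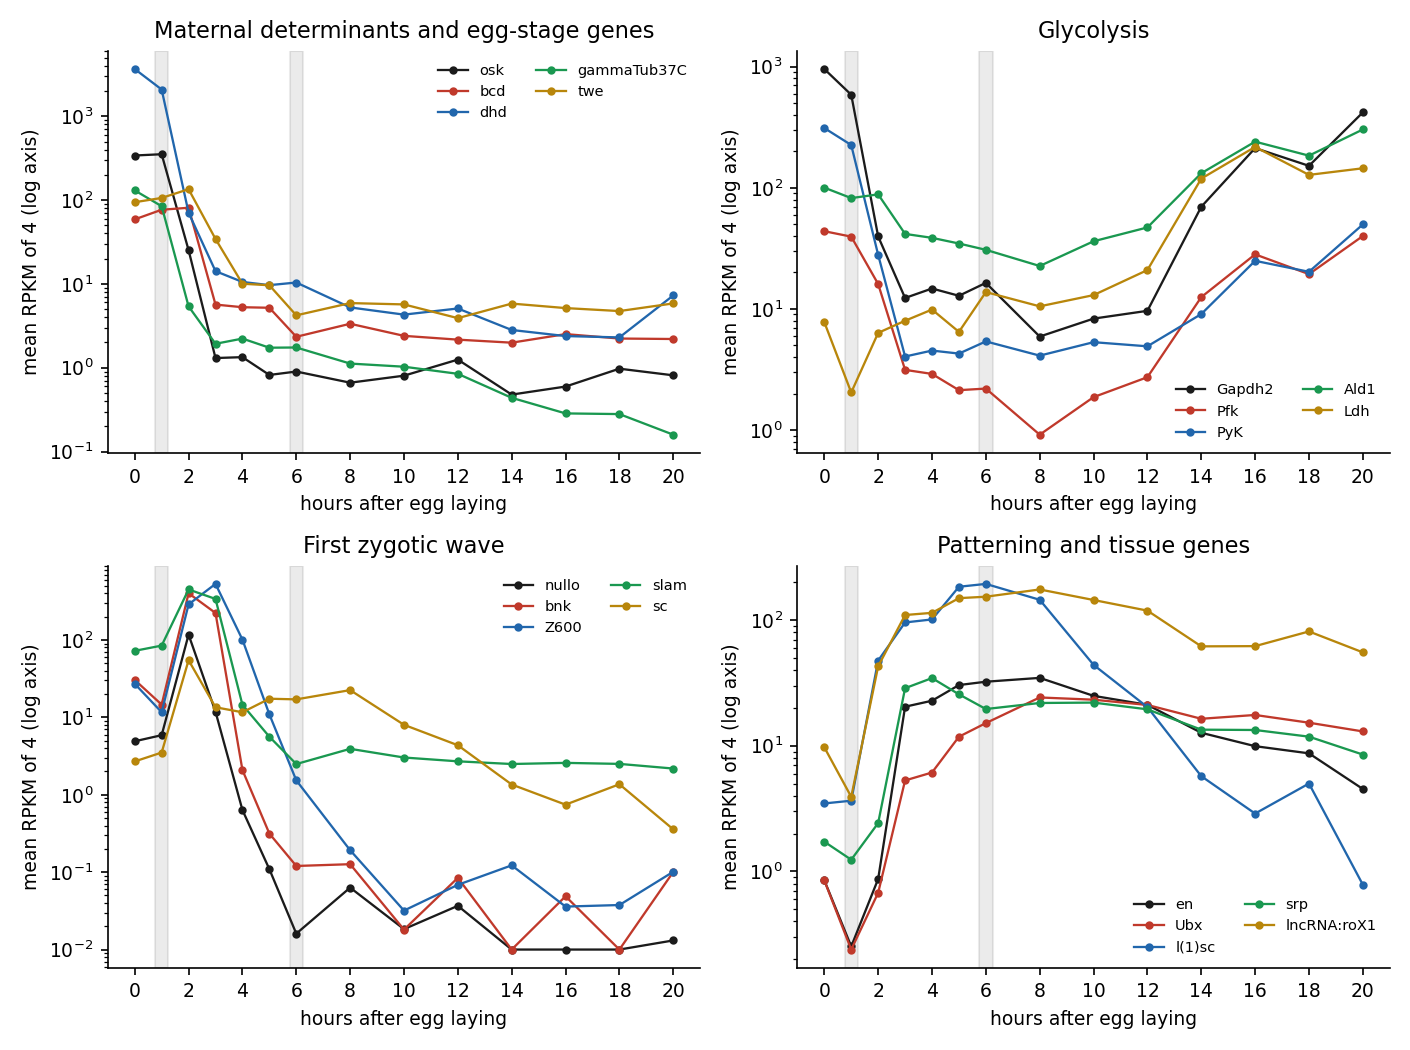
Mean level over 4 replicates at each of the 14 time points, in RPKM on a log axis with 0 drawn at 0.01, against hours after egg-laying; grey bands mark 1 h and 6 h. The genes at the upper left had fallen by 4 h and stayed low. Those of glycolysis fell by 3 h and rose again after 12 h, except that *Ldh* was already low at 1 h. The first-wave genes peaked at 2 to 3 h, between the time points compared, and the patterning genes were high at 5 to 6 h.

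The genes of the first zygotic wave, which are switched on while the nuclei still divide, were 15 in the test, with 9 called higher, 5 lower and 1 neither. Most of those called lower are known for functions around cellularization. *nullo*, which acts on the actin network of the forming cells, was measured at 0.865, 12.2, 3.44 and 7.09 RPKM at 1 h and 0, 0, 0 and 0.0642 RPKM at 6 h. *bnk*, which times the closing of the cells, was measured at 2.08, 26.6, 8.59 and 21.2 RPKM at 1 h and 0.222, 0.0687, 0.19 and 0 RPKM at 6 h. Both were almost absent at 6 h, and their 1 h replicates differed widely, replicate 1 being the lowest and replicate 2 the highest. *slam*, which directs membrane growth, was measured at 70.4, 102, 79.1 and 87.3 RPKM at 1 h and 1.94, 1.58, 3.46 and 3.00 RPKM at 6 h. *Z600*, a mitotic inhibitor, was measured at 1.96, 17.9, 9.98 and 16.8 RPKM at 1 h and 3.02, 1.87, 0.287 and 0.959 RPKM at 6 h, and *term* fell by 4.33 on the log2 scale. The groups of *Z600* overlapped, since 1 h replicate 1 lay below 6 h replicate 1. Their mean levels at 2 h or 3 h were much higher than at either time: *nullo* reached 117 RPKM at 2 h, *bnk* 401 RPKM at 2 h and *Z600* 530.5 RPKM at 3 h, so a comparison of 1 h with 6 h passes over their expression.

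The gap genes and X-linked signal elements were called higher. *Kr*, the gap gene of the trunk, was measured at 0.853, 1.76, 0.93 and 1.23 RPKM at 1 h and 54.6, 62.9, 53.4 and 54.4 RPKM at 6 h, and *kni*, *gt* and *tll* had log2 fold changes of 4.01, 3.59 and 3.24. *hb*, which has both a maternal and a zygotic transcript, was not called in the fit reported but was called lower in 4 alternatives. It was measured at 69.6, 63.1, 73.0 and 61.2 RPKM at 1 h and 34.0, 33.6, 40.1 and 36.0 RPKM at 6 h. Of the elements that count X chromosomes, *sisA* was measured at 1.48, 5.20, 1.40 and 6.10 RPKM at 1 h and 48.6, 35.6, 45.7 and 40.0 RPKM at 6 h. *sc* stood at 0.8, 6.93, 1.84 and 4.48 RPKM at 1 h and 16.7, 18.7, 18.1 and 14.8 RPKM at 6 h, and the pair-rule gene *run* had a log2 fold change of 4.23. *halo*, a factor of lipid droplet transport, was higher at 6 h (log2 fold change 1.44, SE 0.60, adjusted p = 0.0264) but not in every fit.

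These genes also differed between the 1 h replicates. In 12 of 12 of them, 1 h replicates 2 and 4 were both above replicates 1 and 3. Left out were *slam*, *Sxl* and *hb*, which have a maternal supply, and *Sry-alpha*, which lies within another gene. This group was chosen after its values were seen, and the share of all genes with this order was not determined. The summed level of the 12 was 14.9, 119, 46.0 and 98.2 RPKM in 1 h replicates 1 to 4, against 226 to 249 RPKM at 6 h and means of 132 RPKM at 0 h and 1646 RPKM at 2 h. A different order held for genes that are switched on later. The 8 Hox genes summed to 2.00, 2.96, 0.609 and 0.914 RPKM at 1 h. Of the 8, 7 were higher in replicates 1 and 2 than in 3 and 4, again without a share over all genes. At 0 h the mean of this sum was 5.07 RPKM. The genes of late differentiation summed to 344, 263, 179 and 241 CPM in 1 h replicates 1 to 4, and their part in these values was not tested. With each 1 h replicate left out in turn, the number of genes called lower was 2265 to 2293 and higher 3680 to 3874. In these 4 fits TMM also took another reference library, 10 h replicate 3, so the part of the replicate and that of the reference cannot be told apart.

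**Figure D5:**
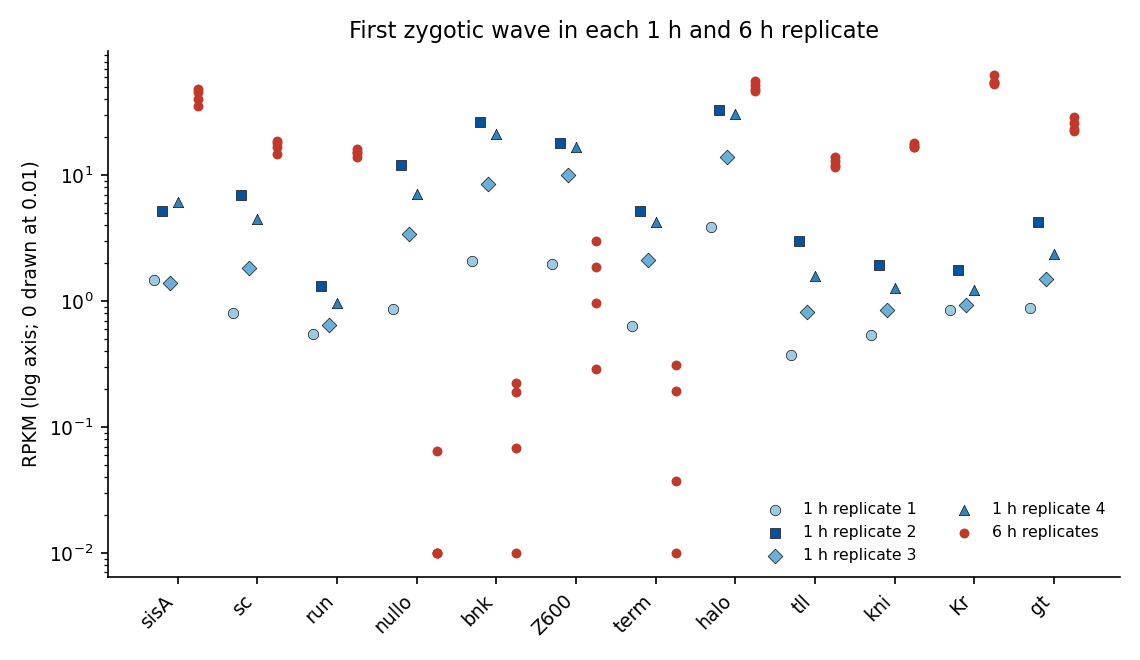
Level of 12 genes of the first zygotic wave in each 1 h replicate (blue symbols, one shape for each replicate) and in the 6 h replicates (red), in RPKM on a log axis with 0 drawn at 0.01. The squares and triangles, 1 h replicates 2 and 4, lie above the circles and diamonds in all 12 genes. In *nullo*, *bnk* and *term* the red points lie below all blue symbols.

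Segment polarity genes, which fix the borders within each segment, were nearly all higher at 6 h. Of 10 tested, 9 were called higher in every fit and 1 was not called, with a median log2 fold change of 6.70. *en*, the homeobox gene of the posterior compartment, was measured at 0.393, 0.324, 0.093 and 0.202 RPKM at 1 h and 30.8, 31.3, 35.0 and 32.1 RPKM at 6 h, a log2 change of 7.09 (SE 0.41, adjusted p = 6.95e-20). Its paralog *inv* reached 3.99 to 4.91 RPKM and the secreted signal *hh*, which it controls, 16.2 to 18.3 RPKM. The receiving cells' genes *ptc*, the Hedgehog receptor, and *ci*, the transcription factor of the pathway, rose to 72.3 to 78.7 and 163 to 185 RPKM, from at most 1.35 and 2.82 RPKM. *slp1*, a forkhead factor of the anterior compartment, was measured at 1.94, 3.85, 1.46 and 3.25 RPKM at 1 h and 142, 145, 131 and 128 RPKM at 6 h, and of the 10 genes only *ci* and *arm* stood at higher levels than *slp1* at 6 h. The members with a maternal supply moved little by comparison: *arm*, the beta-catenin of Wnt signalling, had a log2 change of 1.73 (SE 0.09, adjusted p = 2.74e-22), and *smo*, the Hedgehog signal transducer, one of -0.07 (SE 0.21, adjusted p = 0.777).

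All 8 Hox genes, which give the segments their identity, were called higher in every fit, with a median log2 fold change of 5.83. Their levels stayed modest. *abd-A* was measured at 0.639, 1.18, 0.152 and 0.228 RPKM at 1 h and 23.8, 20.2, 22.6 and 21.7 RPKM at 6 h, *Ubx* at 14.2 to 16.6 RPKM at 6 h and *Antp*, 50.1% of whose exon bases are shared with another gene on the same strand, at 11.6 to 13.8 RPKM. *pb*, of the mouthparts, was the lowest, with 0.014, 0.0714, 0 and 0.0335 RPKM at 1 h and 1.94, 1.69, 2.50 and 2.21 RPKM at 6 h. Leaving out *Antp*, whose level per length may be understated by the shared bases, the order *abd-A*, *Ubx*, *Scr*, *Dfd*, *Abd-B*, *lab* and *pb* held in each 6 h replicate.

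Genes of neurogenesis gave 14 calls higher in every fit among 15 tested (median log2 fold change 6.01). The proneural gene *l(1)sc*, which lets single ectoderm cells become neuroblasts, was measured at 2.33, 5.92, 2.37 and 3.99 RPKM at 1 h and 180.4, 217, 194 and 184 RPKM at 6 h. It was more abundant at 6 h than the proneural genes *ase*, with 23.6 to 26.3 RPKM, and *sc*, with 14.8 to 18.7 RPKM. The neuroblast factors *wor* and *dpn* were measured at 44.1 to 51.6 and 41.2 to 52.6 RPKM at 6 h. Of the Notch targets that restrict this fate, *E(spl)m7-HLH* reached 212 to 242 RPKM and *E(spl)m8-HLH* 75.5 to 101 RPKM. The column identity genes *vnd* and *ind* rose to 3.72 to 4.27 and 16.5 to 23.4 RPKM. The receptor gene *N* is supplied maternally and was measured at 45.5, 42.9, 25.7 and 19.4 RPKM at 1 h and 61.0, 54.1, 62.0 and 59.4 RPKM at 6 h. Its groups were separate, but the log2 fold change of 0.93 (SE 0.31, adjusted p = 0.00718) missed the fold threshold. Markers of later steps were detected too, *pros* at 4.88 to 6.11 RPKM and *elav*, of neurons, at 20.6 to 23.2 RPKM.

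In the mesoderm, 10 of 10 genes tested were called higher, 9 of them in every fit, with a median log2 fold change of 5.04. *sna*, the repressor of ectoderm genes that is needed for invagination, was measured at 1.38, 3.64, 1.28 and 3.11 RPKM at 1 h and 87.1, 101, 102 and 91.2 RPKM at 6 h. *twi*, its activator, was measured at 0.963, 1.81, 0.848 and 1.15 RPKM at 1 h and 24.0, 20.3, 16.3 and 14.6 RPKM at 6 h. At 6 h replicates 1 and 2 held more *twi* than replicates 3 and 4. The genes of the later subdivision had risen as well: *tin*, of heart and visceral muscle, to 28.8 to 34.1 RPKM, *bap*, of visceral muscle, to 20.2 to 31.1 RPKM, and *htl*, the FGF receptor of migrating mesoderm, to 20.0 to 23.1 RPKM. *lmd*, of the fusion-competent myoblasts, reached 13.6 to 17.1 RPKM, while *nau*, of muscle founders, was still at 1.40 to 1.84 RPKM. *Mef2*, a factor of muscle differentiation with 10.8 to 11.7 RPKM at 1 h, had a log2 change of 1.02 (SE 0.18, adjusted p = 2.86e-06), just past the threshold and not in every fit.

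Of 10 genes of the endoderm and blood, 9 were called higher and 1 lower. *fkh*, of the gut and salivary gland primordia, was measured at 0.634, 0.944, 0.23 and 0.204 RPKM at 1 h and 44.7, 46.5, 47.4 and 44.9 RPKM at 6 h. *gcm*, which directs glial and blood cell fate, was measured at 0.12, 0.76, 0.12 and 0.23 RPKM at 1 h and 38.6, 39.4, 37.6 and 34.1 RPKM at 6 h. *srp*, the GATA factor of endoderm, fat body and blood, was measured at 1.48, 1.33, 1.15 and 0.997 RPKM at 1 h and 20.1, 17.7, 21.1 and 19.4 RPKM at 6 h. *hkb* and *GATAe* had log2 fold changes of 5.50 and 4.86. *Hnf4*, a nuclear receptor of the gut and fat body, was the exception, with 16.7, 14.6, 16.9 and 15.9 RPKM at 1 h and 1.52, 1.34, 1.60 and 1.67 RPKM at 6 h, a maternal mRNA that was lower at 6 h.

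The dorsal ectoderm, amnioserosa and trachea gave 13 genes called higher and 1 lower among 14 tested (median log2 fold change 5.49). *dpp*, the BMP ligand, was measured at 0.291, 0.429, 0.12 and 0.24 RPKM at 1 h and 14.0, 15.1, 12.1 and 12.7 RPKM at 6 h. Its receptor gene *tkv*, which has a maternal supply, was called higher but not in every fit, with 46.7, 44.7, 24.3 and 27.9 RPKM at 1 h and 77.2, 73.4, 67.1 and 66.6 RPKM at 6 h. The GATA factor *pnr* reached 21.6 to 22.5 RPKM. The T-box genes *Doc1*, *Doc2* and *Doc3*, which lie next to each other and share expression in the amnioserosa, rose to 52.4 to 63.8, 30.3 to 33.8 and 44.9 to 47.7 RPKM. *zen*, the homeobox gene of the amnioserosa, ran against them, with 1.20, 7.52, 1.97 and 5.92 RPKM at 1 h and 0.541, 0.167, 0.0514 and 0.171 RPKM at 6 h. It was above 6 h in every 1 h library, by little in replicate 1, and its mean level at 2 h was 95.6 RPKM. *trh* and *vvl*, which specify tracheal cells, reached 10.4 to 13.8 and 14.8 to 17.8 RPKM.

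Genes of dosage compensation, which raises transcription of the male X, did not move together. *msl-2*, the subunit made only in males, was measured at 0.898, 1.70, 1.05 and 0.911 RPKM at 1 h and 27.4, 25.4, 24.0 and 25.7 RPKM at 6 h. The noncoding *lncRNA:roX1*, which guides the complex to the X, was measured at 4.01, 7.32, 2.25 and 2.10 RPKM at 1 h and 170.1, 144, 143 and 156 RPKM at 6 h, and *lncRNA:roX2* reached 4.39 to 4.69 RPKM. Subunits with a maternal supply differed in direction: *msl-1* and *mof*, the acetyltransferase, fell by 1.55 and 1.18 on the log2 scale, *msl-3* (log2 fold change -0.43) was not called, and the helicase gene *mle* was called higher (log2 fold change 1.32) but not in every fit. *Sxl*, the switch gene of female development, lay at 11.8 to 17.2 RPKM at 1 h and at 55.9 to 64.0 RPKM at 6 h. *tra*, its target, lay at 11.3 to 13.3 RPKM at 1 h and at 35.9 to 38.3 RPKM at 6 h. The embryos were not described as sorted by sex, so the values are averages over both.

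The Halloween genes of ecdysone synthesis were measured early in the time course. All 5 tested were called higher, 4 of them in every fit, and *spok* in each fit that tested it. *dib* was measured at 0.953, 0.405, 0.263 and 0.285 RPKM at 1 h and 34.4, 30.9, 25.8 and 28.4 RPKM at 6 h, *sad* reached 20.7 to 23.8 RPKM and *spo* 12.2 to 21.4 RPKM. The mean level of *spo* was 100.1 RPKM at 3 h and 109.7 RPKM at 4 h, above its level at 6 h. *shd*, for the last step to the active hormone, was low, at 0.871 to 1.32 RPKM, and *spok*, at most 0.154 RPKM, stayed close to the limit of counting.

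Among the most abundant mRNAs at 1 h, *dhd*, *me31B* and *CycB* were called lower in every fit, as given above, whereas the calls of ribosomal protein genes turned on the scaling. *RpL41* was the most abundant nuclear mRNA at both times, with 2996, 3539.7, 3969 and 6116 RPKM at 1 h and 10012, 9739, 9795 and 10203 RPKM at 6 h. Of 84 ribosomal protein genes tested, 64 were called higher and 20 neither, with a median log2 fold change of 1.16, but 8 were called in every fit and the count ranged from 8 to 71. The sum over the family was 49811 to 69855 CPM at 1 h, highest in replicate 4, and 102441 to 118640 CPM at 6 h. *eEF2*, the elongation factor, overlapped between the groups (log2 fold change 0.24). Of 35 proteasome genes tested, 14 were called lower in every fit, 4 higher and 17 neither (median log2 fold change -0.80), and up to 27 were lower in other fits. Their sum was 7991 to 10154 CPM at 1 h and 3741 to 4185 CPM at 6 h. Of 17 mitochondrially encoded genes tested, 11 were called higher and 6 neither, and 4 of the 11 kept the call in every fit that tested them (one alternative left these genes out). *mt:CoI*, a cytochrome oxidase subunit, was measured at 2702, 3188, 2894 and 872 RPKM at 1 h and 4029, 8941, 6259 and 8254 RPKM at 6 h, with the lowest level of its group in 1 h replicate 4 and in 6 h replicate 1.

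The other time points show when the difference between 1 h and 6 h arose. Over the 1938 annotated genes called lower in every fit, the median level was 72.7% of that at 1 h by 2 h, 28.2% by 3 h, 23.2% by 4 h and 22.2% by 6 h. At 2 h 36.3% of these genes had fallen below 50% of their 1 h level, and at 3 h 74.6%. In RPKM the larger part of the fall thus lay before 3 h, and the lower quartile of the level was already 33.7% at 2 h. RPKM is scaled to all counts on genes, whereas the calls used TMM. The TMM factors were 0.982 to 1.12 at 1 h, 0.774 to 0.795 at 2 h and 0.781 to 0.973 at 3 h. TMM scaling would therefore raise the 2 h and 3 h levels relative to 1 h, and the 2 h figures depend most on this choice. At 20 h the median level was 30.4%. The 2224 annotated genes called higher in every fit had a median level of 17.3% of that at 6 h by 2 h, 54.0% by 3 h, 77.9% by 5 h and 93.8% by 8 h. At 0 h it was 15.5%, against 7.40% at 1 h. The genes were chosen by their levels at 1 h and 6 h, so these medians are a description.

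Genes called higher and genes called lower also differed in position and in kind, here given as shares with no test. Of the protein-coding genes called lower, 20.6% lay on the X, against 14.0% of those called higher and 16.3% of all tested, and the shares for calls in every fit were 21.3% and 13.8%. Noncoding RNAs made up 8.30% of the annotated genes called higher, 2.75% of those called lower and 4.54% of all tested. A span over 20 kb was found for 12.5% of the protein-coding genes called higher, 8.65% of those called lower and 9.23% of all tested. The median number of separate exon blocks was 4 in each of these groups.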

How the data were processed

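Counts of reads per gene were deposited by the authors for each library, without normalization. Per the submitters' processing notes, reads were mapped to BDGP6 with STAR 2.4.0h and counted with HTSeq 0.6.1p1; the methods state the union mode and Ensembl release 79. The total lines of each file (unassigned reads, 3.90% to 5.11% of the 8 libraries) were left out. Whether counting used strand is not given in the sources used here: of protein-coding genes with at least 95% of their exon bases inside another gene, 86.8% had 10 or more counts where that gene was on the opposite strand and 9.23% where it was on the same strand.

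Symbols, positions and exon lengths came from an Ensembl annotation of BDGP6, which held 17252 of the 17558 gene IDs. RPKM used the union of a gene's exons and all counts on genes. Genes were tested in edgeR 4.0.16 (R 4.3.3) with the quasi-likelihood test, TMM normalization, filterByExpr and Benjamini-Hochberg adjustment over 11065 genes, in a single fit of all 56 libraries with a mean per time point. On simulated counts for 6 h against 1 h, the fit found 171 (85.5%) of 200 genes changed 4-fold among 10632 genes, with 5 other calls. The simulation kept the mean of every other gene equal over all time points and changed equal numbers up and down. In the data 55.3% of the genes were called, unevenly split. The simulation therefore cannot show errors that come from the scaling or from genes almost absent at 1 h.

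Named genes are the 12 largest rises and falls among called genes that averaged 100 counts or more and had a symbol and no overlap between groups, the 10 most abundant genes at each time, and list members. The comparison, the lists and the rule were chosen with earlier results of these data known. Some list members did not match an ID and are not reported here. Alternatives were DESeq2 1.42.0, its size factors, total counts, leaving out mitochondrial genes, no filter, the 8 libraries alone, the replicate block, each replicate left out, and, chosen after seeing the data, 3 other TMM reference libraries. Figures were drawn with matplotlib 3.10.9.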

Additional observations from a re-analysis of the deposited data

Results flagged for a closer look

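In 74 groups of 4 values, 2 held a library far from the other 3 by Dixon's criterion, which chance alone meets in about 1 of 20 groups. Both were in 1 h replicate 4. The level of *RpS18*, a protein of the small ribosomal subunit, was 2027 RPKM there, and that of *alphaTub84B* 1650.2 RPKM. In the same library the ribosomal protein genes summed to 69855 CPM, against 49811 to 53294 CPM in the other 1 h libraries, and mitochondrially encoded RNAs held 2.78% of the counts, against 5.49% to 7.07%. The part of these shares in these 2 values was not tested. Without 1 h replicate 4, 3745 genes were called higher and 2265 lower. In that fit TMM, the trimmed-mean scaling, also took 10 h replicate 3 in place of 16 h replicate 3 as its reference, so the part of each in the change of the counts cannot be told apart.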

How the results depend on the processing

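The number of genes called higher was 2866 to 4653 and the number called lower 2013 to 3122 over the 19 alternatives, all within 1.5 times the reported counts. The largest shift came with the library that TMM takes as its reference, 16 h replicate 3 in the fit reported. When 6 h replicate 1, 3 or 4 was left out, TMM took 2 h replicate 4, the median log2 fold change went from 0.48 to between -0.01 and 0.01, and 3127 to 3256 genes were called higher and 3059 to 3122 lower. With all libraries and that reference, the counts were 3257 and 3105. Without 6 h replicate 2 the reference stayed and the counts were 4061 and 2102. With the 8 libraries alone, for which the reference was 6 h replicate 1, 2887 were higher and 2224 lower of 9068 tested; that reference with all libraries gave 3715 and 2424. The reference was 10 h replicate 3 without the filter (4471 and 2332 of 15927), without the mitochondrial genes (3858 and 2272) and with any 1 h replicate left out, so these fits each changed more than 1 choice. With DESeq2 the counts were 4653 and 2029. Of the 241 named genes tested, 198 were called, 179 of them in the same direction in every fit that tested them, 19 lost the call in at least 1 fit, 15 others gained one, and 0 reversed. Same-numbered libraries of 1 h and 6 h did not deviate together (correlations of -0.20 to 0.10), and libraries with different numbers gave -0.20 to 0.26. These few correlations show no pairing by number but cannot exclude one. With the replicate number as a block, the counts were 3992 and 2111, or 2866 and 2214 within the 8 libraries. The 1 RPKM classes ranged from 181 to 214 genes (1 h only) and 1035 to 1150 (6 h only) over TMM scaling and left-out replicates. Per library 3 counts were 0.156 to 0.212 CPM, so genes below that at 1 h have poorly known fold changes.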
